A study of Mus musculus with 12 samples.

Results

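Glul, Oat, Rhbg and Slc1a2 are 4 genes through which hepatocytes next to the central vein of the liver lobule take up ammonium and glutamate and make glutamine. They were chosen by name, and all 4 were found among the 54532 genes of the deposited table. All 12 samples were bulk liver RNA of Apoe knockout mice, so both groups lacked the apolipoprotein E gene. The control group (6 samples) had been injected with Gfp-AAV, an adeno-associated virus carrying Gfp, and the other group (6 samples) with Rspo2-AAV. The secreted ligand R-spondin 2, encoded by Rspo2, amplifies Wnt signalling through beta-catenin. The vector's promoter, the age of the mice and the time after injection were not given in the sources used here. Control samples carried the numbers 1 to 6 and Rspo2-AAV samples the numbers 1, 2, 4, 5, 6 and 7. Nothing in the labels said that each sample was a separate mouse, so p-values cover only sample-to-sample spread, which may be technical. Unless named as SE, an error after ± is the SD over the 6 samples of a group.

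Ammonia reaching the liver is first turned into urea by periportal hepatocytes, and what escapes is captured by a narrow rim of perivenous cells. Glutamine synthetase, the product of Glul, joins ammonia to glutamate in those cells. Slc1a2 encodes a high-affinity glutamate transporter (GLT-1), Rhbg an ammonium transporter of the Rhesus family, and Oat the mitochondrial ornithine aminotransferase, which turns ornithine into a precursor of glutamate. Glul in particular is known as a gene of the innermost pericentral layer that depends on Wnt/beta-catenin signalling.

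The sequence just before the start of a gene is shown for the members found in the RefSeq promoter table (GRCm38.p6). This table matched 3 of the 4 members, Glul, Oat and Slc1a2, and Rhbg was not matched. Each run gives the 250 bases before the annotated start, 5′ to 3′ on the gene's own strand. Capitals mark the letters CCAAT and 4 words of the TCF/LEF type, on both strands: the word CTTTGAA, the word CTTTGAT, the word CTTTGTA and the word CTTTGTT, which do not overlap each other here. The windows lie at chr1:153899679-153899928 (plus strand), chr7:132576399-132576648 (minus strand) and chr2:102706188-102706437 (plus strand).
Glul: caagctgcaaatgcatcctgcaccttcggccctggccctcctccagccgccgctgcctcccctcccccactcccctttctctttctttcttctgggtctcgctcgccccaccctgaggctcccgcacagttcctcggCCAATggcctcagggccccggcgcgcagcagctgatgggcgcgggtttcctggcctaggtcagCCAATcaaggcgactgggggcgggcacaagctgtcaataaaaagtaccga
Oat: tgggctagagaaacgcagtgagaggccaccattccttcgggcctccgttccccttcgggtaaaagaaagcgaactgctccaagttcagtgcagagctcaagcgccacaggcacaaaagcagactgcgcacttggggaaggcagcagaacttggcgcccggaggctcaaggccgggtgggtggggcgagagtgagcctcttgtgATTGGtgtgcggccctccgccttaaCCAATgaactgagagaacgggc
Slc1a2: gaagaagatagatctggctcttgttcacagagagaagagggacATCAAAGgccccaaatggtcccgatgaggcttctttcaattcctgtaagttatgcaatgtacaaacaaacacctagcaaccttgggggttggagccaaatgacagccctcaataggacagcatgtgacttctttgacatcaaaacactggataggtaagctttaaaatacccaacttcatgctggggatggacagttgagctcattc
The Glul window held CCAAT in 2 places, and so did the Oat window, 1 of them on the opposite strand. In the Slc1a2 window CTTTGAT stood once on the opposite strand, 207 to 201 bases before the start, and CCAAT was not found. Among all 32851 windows of this length, 33.8% held CCAAT and 14.8% held at least 1 of the 4 TCF/LEF words. The GC content was 64.8% in the Glul window, 60.0% in the Oat window and 44.8% in the Slc1a2 window, against a median of 52.4% over all windows. The annotated start of Slc1a2 lay 47779 bases inside the gene span of the deposited table, whereas those of Glul and Oat lay within 15 bases of it. A match of letters is a description of the window only.

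Library facts that touch these genes were as follows. Recovered reads ran from 14295644 to 22195576 per library. Rspo2 had 0 reads in each control library and 49.9 to 573 FPKM in the Rspo2-AAV libraries (mean 309.5 ± 201, SD, n = 6; exact two-sided permutation test, p = 0.00216, the smallest that 924 splits allow). Several libraries differed from the rest. The inactive X transcript Xist reached 42.0 FPKM in control 3, and in Rspo2-AAV libraries 28.0 (number 1) and 5.57 (number 2), while the remaining 9 libraries had less than 1 FPKM. The share of reads from pancreatic acinar genes was 6.33%, 0.569% and 0.0657% in Rspo2-AAV numbers 4, 5 and 6, and at most 0.00683% elsewhere. Rspo2-AAV 2 had 10.5% of its reads from mitochondrially encoded genes, against 3.53% to 5.89% in the other 11 libraries. Scd1, a fatty acid desaturase gene, was at 331 to 541 FPKM in libraries numbered 1 to 3 and at 2457 to 3662 FPKM in those numbered 4 to 7, in both groups. The labelled tissue matched its markers: Alb, the albumin gene, was at 10098 FPKM or more in all 12 libraries.

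Glul, Slc1a2 and Oat were higher in every Rspo2-AAV library than in any control library. Their ratios of group means were close, but single libraries differed: the log2 ratio of Glul to Oat ran from -1.23 to 0.96 within the Rspo2-AAV group. Mean levels were 2.74 times the control mean for Glul, 2.87 times for Slc1a2 and 2.74 times for Oat. Rhbg had a ratio of means of 2.34, but its groups overlapped and it did not pass the test. A gene was called at an adjusted p under 0.05 in limma fitted to log2(FPKM + 0.5) over 13447 genes, where FPKM is a fragment count scaled to gene length and library size. By that rule 3 of the 4 members were called higher, beside 2.55% of all tested genes called higher and 2.65% called lower. In 1.62% of tested genes all Rspo2-AAV values lay above all control values, as they did in these 3. The median log2 change of the 4 members was 1.38, against 0.00 over all tested genes. In bulk liver RNA, more cells of a type and more RNA per cell cannot be told apart.

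**Figure D1:**
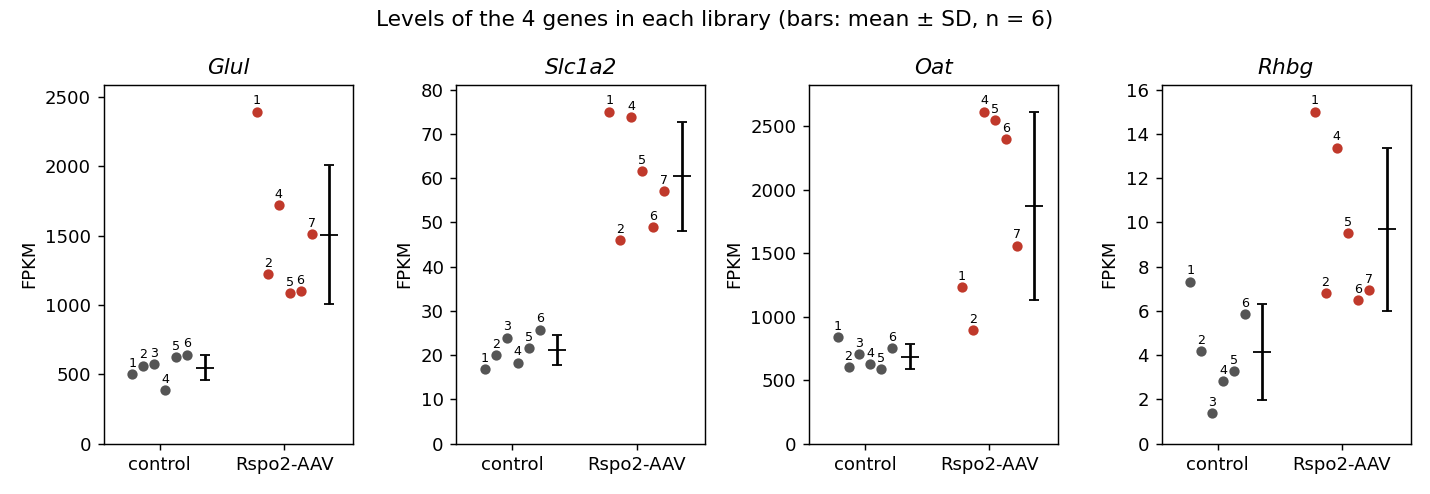
FPKM of Glul, Slc1a2, Oat and Rhbg in each of the 6 control and 6 Rspo2-AAV libraries; digits are the sample numbers, and black bars give the mean ± SD (n = 6). The groups are apart for Glul, Slc1a2 and Oat, whereas control 1 at 7.32 FPKM of Rhbg lies above Rspo2-AAV 2, 6 and 7.

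Glul (ENSMUSG00000026473, GRCm38 chromosome 1, 153899944 to 153909723, plus strand, protein coding) makes the enzyme of glutamine synthesis. Its level in controls 1 to 6 was 501, 562, 575, 388, 624 and 641 FPKM. In Rspo2-AAV 1, 2, 4, 5, 6 and 7 it was 2394, 1220, 1722, 1086, 1099 and 1512 FPKM. The lowest Rspo2-AAV value thus stood above the highest control value, and Rspo2-AAV 1 stood highest. Glul rose from 549 ± 92.8 to 1506 ± 502 FPKM, with a log2 change of 1.41 ± 0.21 (SE, limma adjusted p = 0.00326). Among the 13447 tested genes ordered by mean FPKM, it stood at rank 93 in the control and rank 39 in the Rspo2-AAV group. Between 22086 and 200776 reads per library stood behind these values. Glns-ps1, a processed pseudogene copy of glutamine synthetase, had at most 3.15 FPKM and rose with Glul (0.873 ± 0.441 to 2.16 ± 0.738 FPKM, adjusted p = 0.0310). Reads that it shares with Glul cannot be parted by these values. Teddm2, which overlaps Glul on the opposite strand, had at most 1.81 FPKM and also rose (log2 change 0.88 ± 0.16, adjusted p = 0.00940), and the use of strand in counting was not given.

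Slc1a2 (ENSMUSG00000005089, chromosome 2, 102658659 to 102790784, plus strand, protein coding) supplies the glutamate that glutamine synthetase uses. It was at 16.8, 20.02, 24.0, 18.3, 21.6 and 25.8 FPKM in controls 1 to 6. Rspo2-AAV 1, 2, 4, 5, 6 and 7 had 75.1, 45.9, 73.7, 61.5, 48.9 and 57.1 FPKM. No value lay between 25.8 and 45.9 FPKM, and its spread in the Rspo2-AAV group was the smallest of the 4 members (coefficient of variation 20.2%, against 33.3% for Glul, 38.1% for Rhbg and 39.5% for Oat). Slc1a2 rose from 21.1 ± 3.40 to 60.4 ± 12.2 FPKM, with a log2 change of 1.49 ± 0.15 (SE, limma adjusted p = 0.000521). Its rank by mean FPKM went from 2046 in the control to 833 in the Rspo2-AAV group. The antisense gene Gm13872 within its span had at most 0.532 FPKM.

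Oat (ENSMUSG00000030934, chromosome 7, 132557478 to 132576398, minus strand, protein coding) was the most abundant of the 4 per length. In controls 1 to 6 it was at 838, 602, 704, 626, 585 and 752 FPKM. Rspo2-AAV 1 and 2 had 1232 and 895 FPKM, and Rspo2-AAV 4, 5, 6 and 7 had 2616, 2548, 2396 and 1560 FPKM. The groups did not overlap, but Rspo2-AAV 2 stood close to control 1. Oat rose from 685 ± 98.7 to 1875 ± 741 FPKM, with a log2 change of 1.35 ± 0.26 (SE, limma adjusted p = 0.0111). By mean FPKM it stood at rank 73 in the control and 26 in the Rspo2-AAV group. Without Rspo2-AAV 4 and 5, the libraries with over 0.4% acinar reads, Oat was not called (log2 change 1.07 ± 0.26, adjusted p = 0.0658), and the part of acinar RNA in its level was not tested. The libraries with the most acinar reads, Rspo2-AAV 4, 5 and 6 (6.33%, 0.569% and 0.0657%), were also the highest for Oat. Rspo2-AAV 7, 1 and 2, with at most 0.00683% acinar reads, had 1560, 1232 and 895 FPKM. In that smaller set 2 of the 4 members were called higher, Glul (1.45 ± 0.24) and Slc1a2 (1.40 ± 0.17), beside 0.874% of all tested genes higher and 0.889% lower. Fgfr2, a growth factor receptor gene whose span overlaps that of Oat, fell by 1.26 on the log2 scale and had at most 5.15 FPKM.

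Rhbg (ENSMUSG00000104445, chromosome 3, 88242874 to 88254709, minus strand, protein coding) carries ammonium across the cell membrane and was the least abundant member. Controls 1 to 6 had 7.32, 4.19, 1.39, 2.83, 3.27 and 5.87 FPKM. The Rspo2-AAV libraries 1, 2, 4, 5, 6 and 7 had 15.0, 6.79, 13.4, 9.50, 6.49 and 6.94 FPKM. Control 3 was lowest and control 1 lay above 3 Rspo2-AAV libraries, so the groups overlapped. Its mean was 4.15 ± 2.15 FPKM in the control and 9.69 ± 3.70 FPKM in the Rspo2-AAV group, a log2 change of 1.201 ± 0.32 (SE) that just missed the threshold (limma adjusted p = 0.0505). Only 49 to 734 reads per library stood behind these values. Rhbg was called with limma-voom on recovered reads (adjusted p = 0.0420), without control 1 (1.38, adjusted p = 0.0272) and without Rspo2-AAV 2 (1.28, adjusted p = 0.0472). It was called in 5 of 24 alternatives and not in the other 19, among them no filter on low values (adjusted p = 0.114), TPM scaling (0.0852), without control 4 (0.106), without Rspo2-AAV 5 (0.102) and without both Rspo2-AAV 4 and 5 (0.186). The other Rhesus genes were lower still: Rhcg was listed at 0 in all 12 libraries. Rhag and Rhd, which mark red cell precursors, reached 0.932 and 1.17 FPKM in Rspo2-AAV 1 and 0.724 and 1.27 FPKM in Rspo2-AAV 2. They had at most 0.165 FPKM in the other libraries, and neither averaged enough to be tested over all 12. Among numbers 1 to 3 alone Rhd was tested and not called (log2 change 1.52, unadjusted p under 0.05 in limma).

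The 4 genes did not rank the Rspo2-AAV libraries in the same way. Glul, Slc1a2 and Rhbg were each highest in number 1 and next highest in number 4. Oat was highest in numbers 4, 5 and 6 and lowest in numbers 1 and 2. Rspo2 itself was at 122, 49.9, 386, 573, 461 and 265 FPKM in numbers 1, 2, 4, 5, 6 and 7, so that its 4 highest and 2 lowest libraries were also those of Oat. Glul, in contrast, was lowest in number 5, which had the most Rspo2. Libraries numbered 4 to 7 also differed from numbers 1 to 3 in both groups, as Scd1 shows, and the share of either in these orders was not tested.

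Whether the vector's effect differed between the sample numbers was tested with an interaction term over all 12 libraries. Oat had a log2 change of 0.57 ± 0.38 among numbers 1 to 3 (3 control, 2 Rspo2-AAV) and 1.78 ± 0.20 among numbers 4 to 7 (3 control, 4 Rspo2-AAV). The difference was 1.21 ± 0.36 and did not pass (limma adjusted p = 0.26). Glul went from 1.65 ± 0.43 to 1.30 ± 0.24, Slc1a2 from 1.53 ± 0.31 to 1.44 ± 0.16 and Rhbg from 1.37 ± 0.63 to 1.10 ± 0.30, with interaction terms of -0.34 ± 0.44, -0.09 ± 0.32 and -0.28 ± 0.72 (limma adjusted p = 0.822, 0.955 and 0.928). The interaction was called in 0.245% of all tested genes. Among numbers 4 to 7 alone 3 of the 4 members were called higher, beside 6.52% of tested genes higher and 7.00% lower. Among numbers 1 to 3 alone 0 of 4 were called by limma, beside 0.105% of tested genes higher and 0% lower. There 2 of the 4 were higher at an unadjusted p under 0.05, beside 571 of 13393 gene symbols higher and 401 lower. In the 9 libraries with little Xist, 3 of 4 were called higher (Glul 1.31 ± 0.20, Slc1a2 1.53 ± 0.15, Oat 1.73 ± 0.19), beside 5.98% of tested genes higher and 6.81% lower. Rhbg had 0.90 ± 0.28 there (adjusted p = 0.0641). Controls 1 and 2 remain in that set, whereas its Rspo2-AAV libraries are all numbered 4 to 7, so the vector is partly confounded with the numbers there but not within numbers 4 to 7 alone. In both sets acinar RNA is partly confounded with the vector. Its share was 6.33%, 0.569% and 0.0657% in Rspo2-AAV 4, 5 and 6 and at most 0.00683% in the other libraries of these sets. The part of acinar RNA in these calls was not tested.

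Ratios between the members were compared to see whether they changed by different amounts. Over 7 ratios, with values on the log2(FPKM + 0.5) scale, an exact two-sided permutation test was run for each, and p-values were adjusted over the 7. For the 6 pairs of members the ratio moved by 0.06 to 0.29 (SE 0.14 to 0.41), and no pair passed (smallest exact p = 0.468, adjusted p from 0.821 to 0.87). The steadiest pair was Slc1a2 to Glul, whose log2 ratio was -4.66 ± 0.19 in the control and -4.59 ± 0.29 in the Rspo2-AAV group. With standard errors of this size, small differences could not have been seen for the pairs that include Oat or Rhbg. The Glul to Oat ratio spread most within the Rspo2-AAV group, from -1.23 in number 5 to 0.96 in number 1.

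Gls2, which encodes the liver form of glutaminase and is known from periportal hepatocytes, breaks down what Glul makes. It was at 82.4, 45.1, 109, 121, 89.5 and 68.6 FPKM in controls 1 to 6. The Rspo2-AAV libraries 1, 2, 4, 5, 6 and 7 had 31.8, 64.0, 26.5, 34.6, 25.9 and 36.8 FPKM. Rspo2-AAV 2 alone reached the control range. Gls2 fell by 1.22 ± 0.26 on the log2 scale (limma adjusted p = 0.0178). The call was lost when Rspo2-AAV 6 was left out (adjusted p = 0.0501) and when numbers 4 and 5 of that group were (-1.12, adjusted p = 0.0994). The ratio of Glul to Gls2 in FPKM was 3.20 to 12.5 in the control libraries and 19.1 to 75.4 in the Rspo2-AAV libraries, with no overlap. On the log2 scale the ratio rose by 2.64 ± 0.40 (SE; exact permutation p = 0.00216, the smallest that 924 splits allow, adjusted p = 0.0152 over the 7 ratios), and it was higher in 6 of 6 libraries.

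**Figure D2:**
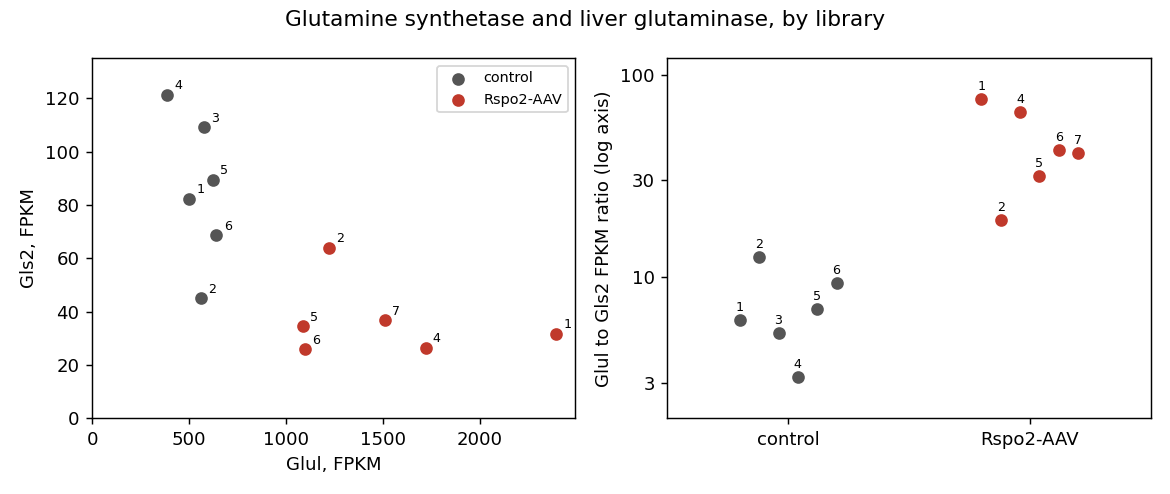
Left, Gls2 against Glul in FPKM for each library; right, the Glul to Gls2 FPKM ratio by group on a log axis, with digits giving the sample numbers. The ratio lies between 3.20 and 12.5 in the control and between 19.1 and 75.4 in the Rspo2-AAV libraries.

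Other genes of glutamine, glutamate, proline and ammonia handling mostly did not pass the test. Of 56 genes in 6 lists 44 were expressed enough to be tested. Of these 6 rose and 2 fell, beside 2.55% of all tested genes called higher and 2.65% called lower. These shares also stand beside the counts of the single lists that follow. The median log2 change of the 44 was 0.15 (0.00 over all tested genes). The risers were Slc1a4, Slc1a5, Prodh, Gpt, Nags and Ctps2, and the fallers were Gls2 and Otc. Without Rspo2-AAV 4 and 5 the counts were 3 and 0 by limma (Prodh, Slc1a4 and Slc1a5 higher), beside 0.874% and 0.889% of all tested genes. At an unadjusted p under 0.05 they were 8 and 2, beside 1118 and 1143 of 13379 gene symbols tested. Among numbers 4 to 7 alone the counts by limma were 13 and 2, beside 6.52% and 7.00% of all tested genes. In the 9 libraries with little Xist they were 12 and 2, beside 5.98% and 6.81%. Among numbers 1 to 3 alone they were 0 and 0 by limma, beside 0.105% and 0%. Unadjusted, 4 of the 45 genes tested there were higher, Rhd among them, and 1 lower. Beside these stood 571 and 401 of 13393 gene symbols.

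**Figure D3:**
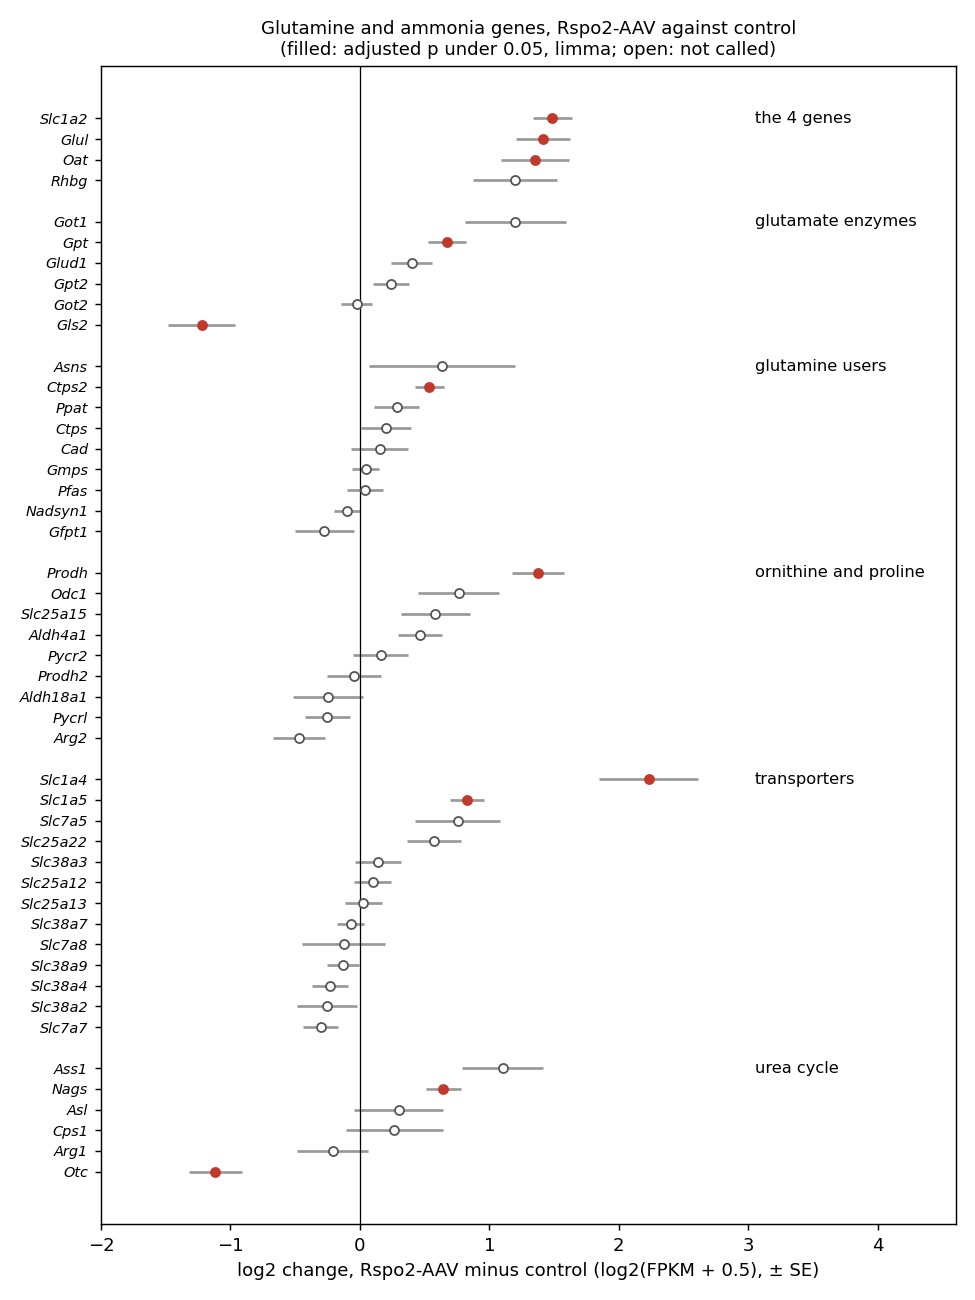
Log2 change of the 4 members and of further tested genes by list, Rspo2-AAV minus control on the log2(FPKM + 0.5) scale, with SE bars; filled points passed an adjusted p under 0.05 in limma. Slc1a4 lies farthest to the right at 2.23, and Gls2 and Otc are the filled points left of 0.

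Slc1a4 and Slc1a5, of the same family as Slc1a2, were the called genes among the listed amino acid carriers. Slc1a4, a carrier of alanine, serine and cysteine, was at 0.725 to 2.73 FPKM in the control and 4.73 to 20.6 FPKM in the Rspo2-AAV libraries, and rose by 2.23 ± 0.38 on the log2 scale (limma adjusted p = 0.00702). Slc1a5, a glutamine carrier, went from 0.517 ± 0.0761 to 1.33 ± 0.328 FPKM (log2 change, Rspo2-AAV minus control, 0.83 ± 0.13, adjusted p = 0.00484). Both groups were apart for these 2 genes. Slc1a1 and Slc1a3, the other listed glutamate transporters of that family, had at most 0.0317 and 0.363 FPKM. Among listed glutamate carriers of the Slc25a family, Slc25a13 was at 62.3 ± 8.38 (control) and 63.8 ± 11.7 FPKM (Rspo2-AAV). Slc25a22 was at 55.5 ± 13.7 and 83.9 ± 21.4 FPKM, which did not pass (log2 change 0.57 ± 0.21, limma adjusted p = 0.130). Slc25a22 was called higher without the libraries with Xist and among the higher sample numbers alone, but not without those with most acinar reads. Slc25a12 and Slc25a18 had at most 3.74 and 0.595 FPKM. Of 13 tested transporters, 2 were called higher and 0 lower by limma (2 and 0 called with limma-voom). At an unadjusted p under 0.05 they were 4 and 1, beside 1382 and 1509 of 13446 gene symbols tested. Slc38a3, a glutamine carrier abundant in hepatocytes, was at 304 ± 53.2 and 340 ± 85.5 FPKM, which did not pass (log2 change 0.14 ± 0.18).

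Around ornithine and proline, Prodh (proline dehydrogenase) was the only one of 9 tested genes called: it was at 18.6 to 42.5 FPKM in the control and 56.4 to 89.8 FPKM in the Rspo2-AAV libraries (log2 change 1.38 ± 0.20, limma adjusted p = 0.00304). It feeds the same intermediate that Oat produces from ornithine. Slc25a15, the mitochondrial ornithine carrier, was at 68.7 ± 23.7 and 105 ± 38.1 FPKM, a difference that did not pass the test. Odc1, ornithine decarboxylase, was at 62.5 FPKM or more in Rspo2-AAV 5, 6 and 7 but at 17.6 in Rspo2-AAV 2, below all controls, and it did not pass (log2 change 0.76 ± 0.31, adjusted p = 0.181).

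Of 7 tested enzymes that form or split glutamate, 1 rose (Gpt) and 1 fell (Gls2). Gpt, an alanine aminotransferase, rose from 113 ± 21.6 to 178 ± 20.9 FPKM (log2 change, Rspo2-AAV minus control, 0.67 ± 0.15, limma adjusted p = 0.0207), but it was not called when control 4, Rspo2-AAV 5 or Rspo2-AAV 6 was left out (adjusted p from 0.0520 to 0.0577), nor with numbers 4 and 5 of the Rspo2-AAV group both left out (adjusted p = 0.0950). Glud1, glutamate dehydrogenase, was at 272 ± 57.9 and 356 ± 50.7 FPKM, which did not pass (adjusted p = 0.158). Of 9 tested glutamine-using enzymes only Ctps2, a CTP synthase, was called (2.09 ± 0.420 to 3.23 ± 0.303 FPKM, log2 change 0.54 ± 0.11, adjusted p = 0.0159; 0.112 with TPM scaling and 0.0655 without Rspo2-AAV 4 and 5).

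In the urea cycle, the other route of ammonia disposal, Nags (which makes the activator of the first step) rose by 0.65 ± 0.13 and Otc (ornithine transcarbamylase, which competes with Oat for ornithine) fell by 1.12 ± 0.20 on the log2 scale (limma adjusted p = 0.0162 and 0.00864, and 0.0702 and 0.0617 without Rspo2-AAV 4 and 5). Cps1, the entry enzyme for ammonia, was at 576 ± 341 and 688 ± 318 FPKM, a log2 change of 0.27 ± 0.37 (SE) that was not called. Ass1, argininosuccinate synthase, had a log2 change of 1.10 ± 0.31 (adjusted p = 0.0585) and was called with limma-voom.

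The pattern of each member was matched against 10096 other protein-coding genes by the root mean square difference, over the 12 samples, of log2(FPKM + 0.5) after subtracting the control mean. Slc1a2 and Glul were closer to each other (0.23) than either was to any of those genes. Next to Glul came Rdh9 (0.29), Slc13a3 (0.31), Ppl (0.38) and Car2 (0.39). For Slc1a2 the nearest were Slc13a3 (0.27), Axin2 (0.28), Rdh9 (0.29) and Tbx3 (0.32). Oat was nearest to Lhpp (0.24), then Srebf2 (0.33), Tmem97 (0.36) and Egln3 (0.37), and lay farther from Glul (0.6) and Slc1a2 (0.46) than from these 4. Srebf2 encodes the transcription factor of cholesterol synthesis and Tmem97 a sterol-regulated protein. For Rhbg the nearest were Cib2 (0.47), Gulo (0.48), Lect2 (0.49) and Slc13a3 (0.54). Slc13a3, a dicarboxylate transporter known from the pericentral zone, was thus among the nearest genes of 3 members.

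**Figure D4:**
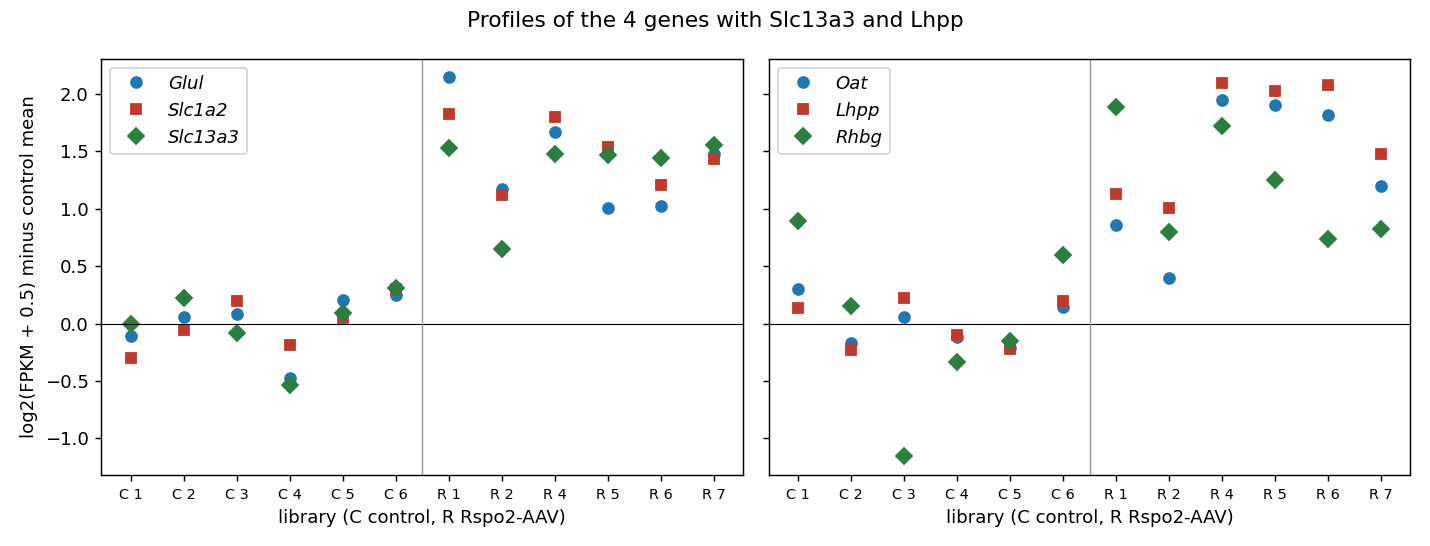
Level in each library as log2(FPKM + 0.5) minus the control mean; left, Glul, Slc1a2 and Slc13a3; right, Oat, Lhpp and Rhbg. Glul and Slc1a2 track each other over the 12 libraries (root mean square difference 0.23), and Oat and Lhpp are both higher in Rspo2-AAV 4, 5 and 6 than in 1 and 2.

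Among 12 tested pericentral or Wnt-dependent genes listed beside the members, 9 were called higher and 0 lower by limma (10 and 0 at an unadjusted p under 0.05, and 9 and 0 with limma-voom). Over all tested genes 2.55% were called higher and 2.65% lower. At an unadjusted p under 0.05, 1382 of 13446 gene symbols were higher and 1509 lower. The median log2 change of the 12 was 1.02. Lhpp, Slc13a3, Axin2 and Tbx3 had the smallest p and log2 changes of 1.64, 1.35, 1.41 and 1.48 (limma adjusted p from 0.00158 to 0.00273), close in size to those of the 4 members. Lgr5, the R-spondin receptor gene of the same zone, rose by 1.03 ± 0.19, and Rspo3, the R-spondin gene that liver normally makes, fell by 0.94 ± 0.15. Without Rspo2-AAV 4 and 5 the counts of the 12 were 5 and 0, beside 0.874% and 0.889% of all tested genes. Of 9 tested periportal genes, 0 were called higher and 7 lower by limma (0 and 9 unadjusted, 0 and 7 with limma-voom), with a median of -2.53, among them Cyp2f2 (-5.42), Hsd17b13 (-4.26), Hal (-2.55) and Cdh1 (-2.25). Without Rspo2-AAV 4 and 5 these counts were 0 and 4. Both lists were drawn up with earlier results of these data known.

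Markers of other liver cells also differed between the groups, and their part in the levels of the 4 members was not tested. Of 6 Kupffer cell markers 3 were called lower by limma (Clec4f, Vsig4 and Marco), and 6 were lower at an unadjusted p under 0.05. Over all tested genes 2.65% were called lower. At an unadjusted p under 0.05, 1382 of 13446 gene symbols were higher and 1509 lower. The summed levels of these 6 markers were 355 to 748 FPKM in the control and 222 to 429 FPKM in the Rspo2-AAV libraries. Of 6 stellate cell markers 3 were called lower (Lrat, Dcn and Rgs5) and 6 were lower at an unadjusted p under 0.05, with sums of 45.5 to 59.2 and 19.8 to 36.2 FPKM. With TPM scaling 2 Kupffer cell markers (Clec4f and Marco) and 1 stellate cell marker (Dcn) were called lower, and with Rspo2-AAV 4 and 5 left out 1 of each was (Marco and Dcn). Sums of 6 endothelial markers overlapped (38.9 to 72.9 and 35.4 to 69.3 FPKM), as did those of 6 bile duct markers (17.3 to 31.1 and 24.5 to 49.0 FPKM) and 6 hepatocyte markers (26611 to 51377 and 21730 to 46073 FPKM). The 12 acinar markers summed to 4.34 to 16.0 FPKM in the control and 3.99 to 50026 FPKM in the Rspo2-AAV libraries. Over all 12 libraries 0 of 12 were called by limma (11 higher at an unadjusted p under 0.05, and 0 called with limma-voom). Among numbers 4 to 7 alone 6 of the 12 were called higher, beside 6.52% of all tested genes. In the 9 libraries with little Xist 10 of the 12 were, beside 5.98%. The fat cell markers Adipoq, Lep and Plin1 stayed under 1 FPKM in every library. Cidec, also on that list, was at 3.39 to 21.8 FPKM in the control and 2.20 to 6.59 FPKM in the Rspo2-AAV libraries. Over all 12 libraries Cidec was not called (log2 change -1.29 ± 0.39, SE, limma adjusted p = 0.0764). It was called lower among numbers 4 to 7, in the 9 libraries with little Xist and with the replicate block. The 4 skeletal muscle markers together reached 1.49 FPKM at most.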

How the data were processed

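Poly-A selected liver RNA of 12 samples was sequenced. The authors deposited FPKM values with gene symbol, position and gene length. GRCm38 (mm10), DESeq2 1.20.0, featureCounts 1.5.0-p3 and HISAT2 2.0.5 are named, without role or order, in the submitters' processing notes. Positions of 98.3% of the gene identifiers found in GENCODE M21 were identical there, those of the 4 members included. Other deposited columns, such as gene length, were used only to recover whole reads, which came out within 0.01 reads for 100.0% of positive values. The library size behind the FPKM was proportional to the median-of-ratios size factor. Reads carry no molecular identifiers.

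Members, lists and the split of the sample numbers were chosen with earlier results of these data known, and CCAAT after the promoters were read. Pycr3 is listed under its older symbol Pycrl. The values of 1 listed gene are not reported here. Genes averaging 0.5 FPKM or more were tested on the log2(FPKM + 0.5) scale with limma (version 3.58.1, R 4.3.3, trended eBayes), which understates changes of low genes, with Benjamini-Hochberg adjustment over all 13447 genes. Permutation tests ran in Python 3.11.15. The fit was tested on simulated data. Named genes were the members, a few fixed genes, up to 4 called genes per list by smallest p (or the 2 of highest mean), and the 4 nearest profiles of each member. Ass1, Odc1, Slc25a12, Slc25a13, Slc25a15, Slc25a18, Slc25a22, Slc38a3, Rhcg, Slc1a1, Slc1a3, Scd1, Xist, overlapping genes and markers were named outside that rule after their values were seen. Alternatives were pseudocounts of 0.1 and 1, other filters, TPM scaling, limma-voom with trimmed-mean scaling, a replicate block, a term for the numbers, and fits without single libraries or sets of them. Promoter sequences came from RefSeq.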

Additional observations from a re-analysis of the deposited data

Results flagged for a closer look

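In 37 sets of 6 values (1 gene in 1 group), 3 had a library far from the other 5 by Dixon's criterion, where chance flags about 1 in 20. Gls2 stood at 64.0 FPKM and Otc at 79.2 FPKM in Rspo2-AAV 2, the highest of their group and inside the control range of each gene. Rspo2-AAV 2 also had the least Rspo2 and the largest share of mitochondrially encoded reads, and their part in these values was not tested. Cps1 stood at 1248 FPKM in control 3, against 328 to 571 FPKM in the other controls.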

How the results depend on the processing

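Limits first: FPKM of a few units rest on few reads (Rhbg had 49 to 734), and each count of called genes moved with single libraries. In the 24 alternatives the log2 change of every member kept its sign. With the replicate block (10 libraries with shared numbers, which do not deviate together) Glul had 1.42 (adjusted p = 0.0608), Oat 1.40 (0.0737) and Slc1a2 1.54 (0.0217, still called); members called fell to 1, pathway genes called lower to 0 (2 at an unadjusted p under 0.05), and genes called to 149 higher and 159 lower. In that block fit 1275 of 13433 gene symbols were lower at an unadjusted p under 0.05. Deviations of same-numbered libraries correlated at -0.249 to 0.156, so the numbers were not taken as pairs. Only number 4 correlated best with its own number. Among numbers 1 to 3 alone Glul had 1.65, Oat 0.57 and Slc1a2 1.53, all without a call; members called were 0, pathway genes 0 and 0, and all genes 14 and 0 by limma (571 and 401 unadjusted); this set has 5 libraries. Without the 2 libraries with over 0.4% acinar reads Oat had 1.07, pathway genes 3 and 0, all genes 117 and 119, and the Slc1a2 to Glul ratio -0.058. Rhbg was called with a pseudocount of 1 (1.10), a floor of 1 FPKM (1.201) and limma-voom (1.37). All genes called were 195 and 216 with no filter, 197 and 183 with TPM scaling, 872 and 936 among numbers 4 to 7 and 798 and 908 without the libraries with Xist, where pathway genes called higher were 13 and 12. In those last 2 sets the Slc1a2 to Oat ratio was -0.34 and -0.19, the Glul to Oat ratio -0.48 and -0.42, and the Glul to Gls2 ratio 2.86 and 2.64 (exact permutation test, adjusted p = 0.2 and 0.0556). For Glul to Gls2 the exact p was the smallest that the splits of each set allow. These sets have too few splits for this ratio alone to pass after adjustment. Cps1 had -0.52 among numbers 1 to 3. Apart from the smaller sets, whose construction leaves fewer samples, the cause of these moves was not tested.

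Leaving out 1 library at a time, Glul ran from 1.27 to 1.497, Slc1a2 from 1.42 to 1.56, Oat from 1.24 to 1.546 (each called in 12 of 12 fits) and Rhbg from 0.97 to 1.38; genes called ran from 162 to 420 higher and 170 to 496 lower (more than 1.5 times fewer than 343 and 356 in 1 or both directions without control 2, 4, 5 or 6 or Rspo2-AAV 5, 6 or 7), members called from 3 to 4, and pathway genes called from 5 to 8 higher and 1 to 2 lower (1 without Rspo2-AAV 6). The ratios ran from -0.18 to 0.25 for Glul to Oat, -0.034 to 0.28 for Slc1a2 to Oat, -0.02 to 0.15 for Slc1a2 to Glul, -0.032 to 0.40 for Oat to Rhbg and 2.43 to 2.86 for Glul to Gls2. The interaction terms ran from -0.83 to 0.14 for Glul, -0.82 to 0.28 for Rhbg, -0.44 to 0.26 for Slc1a2 and 0.98 to 1.44 for Oat, none of which passed.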
